A study of Mus musculus with 2 samples.

Results

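The cells described here are the Il10-positive CD4 T cells without Foxp3 transcripts among donor T cells of the colon in graft-versus-host disease. They were chosen from measured values: a kept barcode belonged to the CD4 class if it had 1 or more unique molecular identifier (UMI) counts of Cd4 and 0 of Cd8a and Cd8b1, and it was a member if it also had 1 or more Il10 UMIs and 0 Foxp3 UMIs. There were 68 such cells among 1861 cells of the CD4 class and 5333 kept cells in all, and they are called Il10-positive cells below. They are set against the 1766 cells of the CD4 class with 0 Il10 and 0 Foxp3 UMIs, called Il10-zero cells. The remaining 27 cells of the class had a Foxp3 UMI.

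All cells came from 1 experiment. Lethally irradiated Balb/c recipients had been given 5000000 C57BL/6 bone marrow cells together with splenocytes that held 800000 alpha beta T cells, and the colons of 5 mice were taken on day 21 and pooled. Donor T cells were sorted on H2-Kb and TCR beta, and their cDNA gave 1 RNA library, made with droplets and 5′ chemistry, and 1 library of T cell receptor (TCR) transcripts. The sample titles name CD4 T cells, while the described sort takes all donor T cells, and 2391 kept cells had Cd8 but no Cd4 UMIs. The pool is 1 sample and no untransplanted or T cell-free control was analysed here, so cells are not replicates, no test was made, and every interval covers counting error only.

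Interleukin-10 is a cytokine that limits inflammation, and CD4 T cells make it both as Foxp3-expressing regulatory T cells and as cells without Foxp3. Among cells without Foxp3, type 1 regulatory (Tr1) cells are described as carrying the transcription factors Maf and Eomes, the receptors Lag3 and Tigit, and granzymes, while T follicular helper cells carry Cxcr5 and Slamf6 and secrete interleukin-21. In graft-versus-host disease, donor T cells recognise antigens of the recipient and expand as clones, and each clone is marked by the nucleotide sequence of its TCR. Il10 (ENSMUSG00000016529) lies on the plus strand of chromosome 1, at 131019845 to 131024974 of the mm10 assembly in the GENCODE annotation.

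Cells were put in 1 clonotype where all productive TRA and TRB chains matched in V segment, J segment and CDR3 bases; a cell needed a single productive TRB chain and some productive TRA chain to have one. The 44 Il10-positive cells with a clonotype belonged to 20 clonotypes, numbered by how many Il10-positive cells they held. The CDR3 sequences of the 5 clonotypes with 4 or more Il10-positive cells are shown because these clones hold 26 of the 44 cells, and the TRA sequences of clones 6 and 8 because they use the same J segment, TRAJ31, as clones 4 and 5. Sequences run 5′ to 3′ as the deposited contig table gives them, and capitals mark the 3′ bases that are identical among the printed chains with the same J segment.
Clone 1 TRA (TRAV4D-4, TRAJ50): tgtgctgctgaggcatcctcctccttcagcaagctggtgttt
Clone 1 TRB (TRBV17, TRBJ2-4): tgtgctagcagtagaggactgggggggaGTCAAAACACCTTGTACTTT
Clone 2 TRA (TRAV7-3, TRAJ6): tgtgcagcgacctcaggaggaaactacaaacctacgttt
Clone 2 TRB (TRBV5, TRBJ2-3): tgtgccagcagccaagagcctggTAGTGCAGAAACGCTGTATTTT
Clone 3 TRA (TRAV13D-2, TRAJ43): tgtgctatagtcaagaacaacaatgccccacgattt
Clone 3 TRB (TRBV4, TRBJ2-4): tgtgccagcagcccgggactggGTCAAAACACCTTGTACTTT
Clone 4 TRA (TRAV6D-6, TRAJ31): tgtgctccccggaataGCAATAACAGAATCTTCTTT
Clone 4 TRB (TRBV1, TRBJ1-5): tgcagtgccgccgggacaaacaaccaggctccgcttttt
Clone 5 TRA (TRAV6D-6, TRAJ31): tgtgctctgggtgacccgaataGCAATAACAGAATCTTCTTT
Clone 5 TRB (TRBV5, TRBJ2-3): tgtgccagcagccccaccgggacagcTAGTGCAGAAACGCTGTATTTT
Clone 6 TRA (TRAV6-3, TRAJ31): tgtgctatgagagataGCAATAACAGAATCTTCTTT
Clone 8 TRA (TRAV14D-3/DV8, TRAJ31): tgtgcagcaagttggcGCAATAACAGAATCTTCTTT
The 4 TRAJ31 chains shared their last 20 bases and differed before them, and clones 2 and 5 shared TRBV5 and TRBJ2-3 but not the bases between.

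The Il10-positive cells held 2668 to 18244 UMIs, with a median of 3980 UMIs and 1697 genes, against a median of 4813.5 UMIs and 1799.5 genes in Il10-zero cells. Their summed UMIs were 333514 against 10632831. All 7 T cell markers were found in both classes. In Il10-positive cells, the 6 B cell and the 5 neutrophil markers had 0 UMIs, and the 11 macrophage markers had 22 UMIs in 12 cells, at 0.660 per 10000 UMIs against 1.30 in Il10-zero cells, with Csf1r, Adgre1 and Aif1 at 0. The 8 T helper 17 markers had 1 UMI in all. The 5 markers of natural killer or innate cells had 61 UMIs in 33 of the 68 cells, at 1.83 per 10000 UMIs (1.40 to 2.35) against 0.5 (0.459 to 0.545) in Il10-zero cells. Eomes, which is on this list, gave 55 of the 61 UMIs, Ncr1 was at 0 in both classes, and the part of such cells in the results was not tested.

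The values that chose the cells were low in most of them. Il10 had 172 UMIs in the 68 cells: 36 cells had 1 UMI, 19 had 2, 13 had 3 or more, and the highest had 17. The 7 cells with 8 or more held 44.2% of all Il10 UMIs. With Foxp3-positive cells included, 79 of 1861 cells of the CD4 class had an Il10 UMI (4.25%, 95% interval 3.37% to 5.26%), against 80 of 2391 cells with Cd8 and no Cd4 UMIs (3.35%, 2.66% to 4.15%), at median depths of 4768 and 4910 UMIs. These intervals overlap. The Cd8 cells mostly had 1 UMI, in 60 of 80, and at most 6, and the summed level was 0.178 Il10 UMIs per 10000 UMIs in the CD4 class against 0.0754 in the Cd8 cells. With every cell thinned to 2000 UMIs, 2.58% of the CD4 class (1.91% to 3.41%) and 1.42% of the Cd8 cells (0.987% to 1.98%) had an Il10 UMI, and these intervals overlap. Thinned to 1000 UMIs, the shares were 1.67% (1.13% to 2.36%) and 0.669% (0.383% to 1.08%), and these intervals do not overlap. Of cells with neither Cd4 nor Cd8 UMIs, 31 of 780 had an Il10 UMI (3.97%). Of cells with both, 26 of 301 had one (8.64%) at a median depth of 7939 UMIs, and 5.98% when thinned to 2000 UMIs. Within the CD4 class, Il10-positive cells ranged from 53 of 197 cells in 1 cluster to 0 of 137 cells in another.

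Il10-positive cells carried more transcripts of the chemokines Ccl4 and Ccl5, of the T-box factor Eomes and of the granzymes Gzmk and Gzmb than Il10-zero cells. Levels are summed UMIs of a class per 10000 UMIs of that class, and a gene counts as higher or lower at a 2-fold difference with 50 or more UMIs over both classes. Of 8442 genes, 5.4% were higher and 8.48% lower in Il10-positive cells, with a median log2 ratio of 0.03 over all genes. Counts on the gene lists below are to be read beside these shares. By the interval bound nearest to equality, the highest were Ccl4 and Ccl5, chemokines that attract effector T cells and macrophages.

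Ccl5 had between 0 and 277 UMIs in an Il10-positive cell, with a median of 58.5, and was found in 66 of 68 cells against 1213 of 1766 Il10-zero cells. Its level was 168 per 10000 UMIs in Il10-positive cells against 24.2 in Il10-zero cells, a ratio of 6.93 (95% interval 6.73 to 7.13). Ccl4 was carried by fewer cells, 28 of 68, with a median of 0 and a highest value of 195 UMIs in 1 cell, against 237 of 1766 Il10-zero cells. Its level was 19.9 against 2.18, a ratio of 9.13 (8.37 to 9.96), and the highest cell held 29.4% of the UMIs. The log2 ratio of Ccl4 was 1.52 with 1 cell per clonotype and 1.38 in cells without Foxp3, Ikzf2 and Il2ra UMIs, against 3.19 over all cells.

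**Figure D1:**
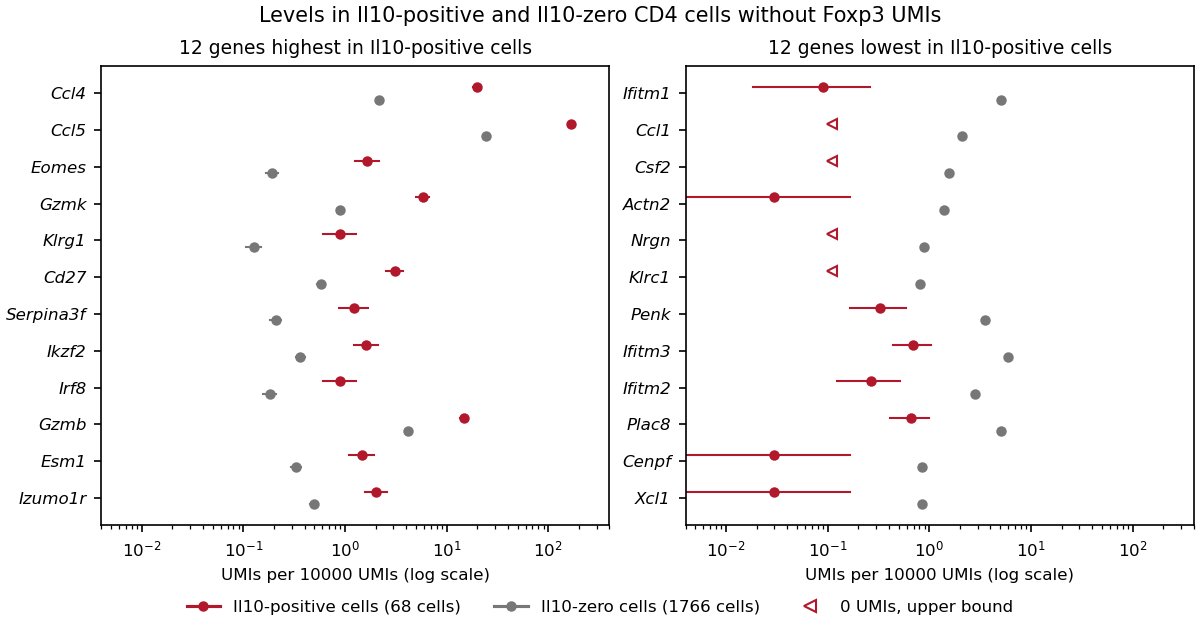
Levels of 12 genes high and 12 genes low in Il10-positive cells, as summed UMIs per 10000 UMIs of the class on a log axis, in the 68 Il10-positive cells and the 1766 Il10-zero cells. Points are levels with exact Poisson 95% intervals, cut at the left edge for Actn2, Cenpf and Xcl1, and open triangles are upper bounds where Il10-positive cells had 0 UMIs; Ccl5 stands at 168 against 24.2, and Csf2 at 0 UMIs.

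Among 12 factors known to act on Il10 transcription in T cells, 4 were higher in Il10-positive cells and none was lower, with a median log2 ratio of 0.39. Eomes, a T-box factor of effector and memory T cells, had 55 UMIs in 30 of 68 Il10-positive cells against 203 UMIs in 110 of 1766 Il10-zero cells, a ratio of 8.64 (6.29 to 11.7). Maf, which binds and activates the Il10 gene, was in 57 of 68 cells against 872 of 1766, at 5.28 against 1.69 per 10000 UMIs, a ratio of 3.12 (2.65 to 3.64). Maf was thus common in both classes, whereas Eomes was in 44.1% of Il10-positive cells and 6.23% of Il10-zero cells. Ikzf3, the Ikaros family factor Aiolos, stood at a ratio of 2.16 (1.74 to 2.66) and the factor Nfil3 at 2.0 (1.43 to 2.75). Prdm1, which encodes Blimp-1, stood at 1.58 (1.08 to 2.22), Batf at 1.46 (1.26 to 1.69) and Bhlhe40, a repressor of Il10, at 1.04 (0.951 to 1.14), and the aryl hydrocarbon receptor Ahr had 7 UMIs at 0.547 (0.219 to 1.14).

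Of 11 surface genes described on Tr1 cells, 6 were higher, among them Entpd1, Itga2, Lag3, Pdcd1 and Tigit, and 1 was lower (Nt5e), with a median log2 ratio of 1.06. Tigit, an inhibitory receptor, had 1 to 21 UMIs in a cell with a median of 5, and was found in all 68 Il10-positive cells against 1456 of 1766 Il10-zero cells, at a ratio of 2.83 (2.56 to 3.11). Lag3, an inhibitory receptor for class II MHC, was in 41 of 68 cells against 404 of 1766, at 2.86 (2.29 to 3.53). Entpd1, the ectonucleotidase CD39, had 23 UMIs at 3.17 (1.97 to 4.88), while Nt5e, the ectonucleotidase CD73, had 2 UMIs at 0.207 (0.0250 to 0.754). Itga2, the integrin subunit CD49b, rested on 6 UMIs in 6 cells, at 2.28 (0.813 to 5.17), an interval that holds equality. Ctla4 was just under 2-fold, at 1.98 (1.79 to 2.18).

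On a list of inhibitory receptors and Tox, 5 of 11 measured genes were higher and none lower; it shares Tigit, Lag3, Pdcd1 and Entpd1 with the list of Tr1 surface genes. Tox, a nuclear factor of persistently stimulated T cells, had 46 UMIs in 27 of 68 cells against 228 of 1766, at a ratio of 4.07 (2.93 to 5.55). Pdcd1, the receptor PD-1, stood at 2.09 (1.76 to 2.46). Cd27, a costimulatory receptor, was in 46 of 68 cells against 379 of 1766, at 5.37 (4.31 to 6.62). It was the single gene of 11 on the costimulation list that was higher, and Cd40lg was the single lower one. Over all 8442 genes, 5.4% were higher and 8.48% lower, and these counts do not set the costimulation list apart.

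The 13 measured granule and killing genes did not move one way: Gzmb, Gzmk and Prf1 were higher, and Ctsw, Gzmc, Klrd1 and Klrk1 lower. Gzmk, the granzyme of memory-like effector cells, had up to 16 UMIs in a cell with a median of 2, and was found in 49 of 68 Il10-positive cells against 275 of 1766 Il10-zero cells, a ratio of 6.51 (5.55 to 7.60). Gzmb, a cell-killing granzyme, was in 46 of 68 cells against 588 of 1766, at 3.56 (3.24 to 3.91), and the pore-forming Prf1 had 15 UMIs at 3.77 (2.05 to 6.45). Gzma stood at 0.998 (0.843 to 1.17). Klrk1, the receptor NKG2D, had 0 UMIs in Il10-positive cells against 445 in Il10-zero cells, and so was at least 4.65-fold lower by a floor of 3 UMIs over the class, which takes UMIs as independent. Klrg1, an inhibitory receptor of effector cells, was in 19 of 68 cells against 78 of 1766, at 7.14 (4.64 to 10.7).

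Eomes or Gzmk was found in 54 of the 68 Il10-positive cells (79.4%, 67.9% to 88.3%) against 300 of 1766 Il10-zero cells. Gzmb and Gzmk were found together in 54.4% of Il10-positive cells (41.9% to 66.5%) against 8.78% of Il10-zero cells (7.5% to 10.2%). Ccl5, Tigit and Maf were found together in 82.4% (71.2% to 90.5%) against 31.3% (29.1% to 33.5%). Thinned to 2000 UMIs per cell, Gzmk was in 57.4% of Il10-positive cells against 9.91% of Il10-zero cells, and Eomes in 25.0% against 3.23%. No cell of either class was shallower than that depth.

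**Figure D2:**
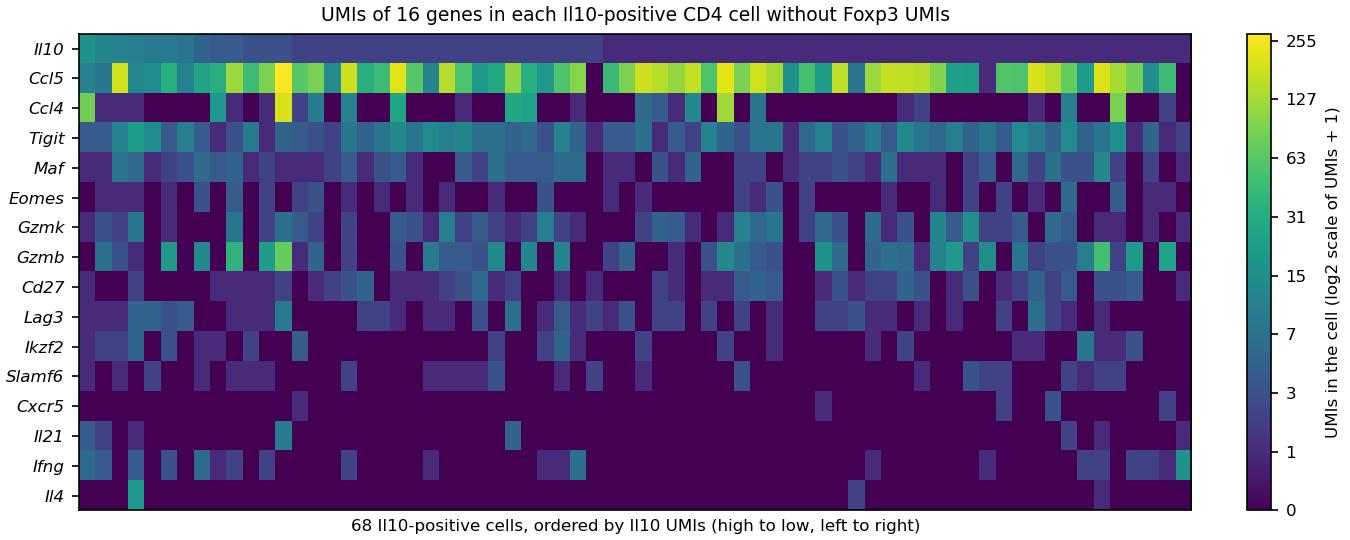
UMIs of 16 genes (rows) in each of the 68 Il10-positive cells (columns, ordered by Il10 UMIs), coloured on a log2 scale of UMIs + 1. Tigit is found in all 68 cells and Ccl5 in 66, Eomes in 30, Cxcr5 in 5, and 19 of the 22 Il4 UMIs lie in 1 cell.

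Cxcr5 and Slamf6, which had been used with Il10 to describe these cells in an earlier analysis of the same data, were each found in a minority. Slamf6, a receptor of follicular helper and stem-like T cells, had 0 to 3 UMIs in a cell and was found in 25 of 68 Il10-positive cells against 346 of 1766 Il10-zero cells, at a ratio of 2.50 (1.76 to 3.47). Cxcr5, the chemokine receptor that guides cells into B cell follicles, had 9 UMIs in 5 cells against 29 UMIs in 20 Il10-zero cells, at 9.89 (4.12 to 21.5), with fewer than 50 UMIs over both classes. Slamf6 or Cxcr5 was found in 29 of 68 Il10-positive cells (42.6%, 30.7% to 55.2%) against 20.2% of Il10-zero cells, and both in 1 cell. Of 10 measured T follicular helper genes, 5 were higher (Il21, Maf, Pdcd1, Sh2d1a and Slamf6) and 2 lower (Bcl6 and Tnfsf8), and Bcl6, the defining factor of follicular helper cells, had 2 UMIs in 1 cell. Of 11 measured naive and stem-like genes, Slamf6 was higher, and Ccr7, which guides cells to lymph nodes, and Il7r, the interleukin-7 receptor, were lower, with Tcf7 at 0.565 (0.291 to 0.994). The naive and stem-like list has too few genes to set it apart from the shares over all genes, 5.4% higher and 8.48% lower.

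Genes of regulatory T cells other than Foxp3 were divided. Of 10 measured, Ikzf2, which encodes the factor Helios, and Izumo1r, the folate receptor FR4, were higher, at 4.44 (3.27 to 5.91) and 4.13 (3.16 to 5.32), and Il2ra, the high-affinity interleukin-2 receptor subunit, was lower, at 0.293 (0.160 to 0.493). As a list, these are too few genes to set apart from the shares over all genes, 5.4% higher and 8.48% lower. Il2ra was found in 9 of 68 Il10-positive cells against 666 of 1766 Il10-zero cells. Set against the 27 Foxp3-positive cells, of which 11 also had an Il10 UMI, Il10-positive cells had 0.420 Il2ra UMIs per 10000 against 4.94, a ratio of 0.0849 (0.0442 to 0.152). Tnfrsf9, an activation receptor, stood at 0.125 (0.0892 to 0.173), Capg, an actin-capping protein, at 0.121 (0.0831 to 0.173) and Klrg1 at 0.227 (0.141 to 0.361) of the level in Foxp3-positive cells. Ccl5 at 7.69 (6.86 to 8.65), Gzmk at 4.87 (2.96 to 8.53), Eomes at 3.34 (1.52 to 8.68) and Pdcd1 at 3.05 (1.93 to 5.08) stood above it. Maf at 1.12 (0.837 to 1.5), Ctla4 at 0.872 (0.735 to 1.04) and Lag3 at 0.753 (0.532 to 1.08) had intervals that held equality. Gzmb at 0.405 (0.357 to 0.459) and Ikzf2 at 0.459 (0.306 to 0.688) stood below the level in Foxp3-positive cells, though above that in Il10-zero cells. Whether a cell with 0 Foxp3 UMIs holds Foxp3 transcripts that were not captured was not tested.

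Effector cytokines other than Il10 were mostly at or below the level of Il10-zero cells. Of 17 measured cytokine genes, Il21 and Il4 were higher and 7 were lower: Areg, Csf2, Il13, Il17a, Il22, Lta and Tnfsf11. Csf2, which encodes GM-CSF, had 0 UMIs in the 68 Il10-positive cells, against 1645 UMIs in 271 of 1766 Il10-zero cells (15.3%). By a limit of 3 cells, this allows a share of up to 4.41% of Il10-positive cells with a Csf2 UMI. By the floor of 3 UMIs, which takes UMIs as independent, Csf2 was at least 17.2-fold lower. With classes set on cells thinned to 2000 UMIs, which left 25 Il10-positive cells, its log2 ratio was 0.09. Ifng, the cytokine of type 1 helper cells, was in 21 of 68 cells against 656 of 1766, at a ratio of 1.02 (0.786 to 1.29), and thinned to 2000 UMIs in 23.5% (14.1% to 35.4%) against 21.7% (19.8% to 23.7%). Tnf stood at 1.19 (0.721 to 1.86) and Tgfb1 had 109 UMIs at 0.881. Tnfsf11, the cytokine RANKL, had 20 UMIs in 8 cells against 3610 UMIs in 779 Il10-zero cells, at 0.177 (0.108 to 0.273).

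The 2 cytokines that were higher rested on few cells. Il21 had 25 UMIs in 8 cells, 9 of them in 1 cell, against 179 UMIs in 101 Il10-zero cells, a ratio of 4.45 (2.81 to 6.79), and its log2 ratio was -0.96 with 1 cell per clonotype. Il4 had 22 UMIs in 3 cells, with 86.4% in 1 cell, at 3.62 (2.21 to 5.63), and its log2 ratio was -0.90 without the highest cell. A list of receptors and signalling genes of interleukin-10, and of cytokines that act on its production, held 3 higher genes of 12 measured. Besides Il21 these were Il10ra, the ligand-binding subunit of the interleukin-10 receptor, at 3.76 (2.47 to 5.54), and Socs3. Socs3, a feedback inhibitor of cytokine signalling, stood at 3.25 (2.65 to 3.97) with UMIs in 48 of 68 cells. The receptor gene of interleukin-27, Il27ra, stood at 1.26 (0.870 to 1.76).

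On the T helper 17 list, of 10 measured genes none was higher and 8 were lower, with a median log2 ratio of -1.71 when genes at 0 UMIs were set to the floor. Il17a, Il22 and Il17re had 0 UMIs in Il10-positive cells, against 347, 327 and 300 UMIs in Il10-zero cells, and Rora, a retinoid-related factor, stood at 0.458 (0.378 to 0.549). Of 10 type 1 helper genes, Ccl5 was higher, and the receptor genes Il12rb2 at 0.344 (0.171 to 0.619), Il18r1 at 0.415 (0.271 to 0.611) and Il18rap at 0.149 (0.0544 to 0.324) were lower, with Tbx21, which encodes T-bet, at 0.855 (0.526 to 1.32). Of 6 measured type 2 helper genes, Il4 was higher, and Il13 with 2 UMIs and Il1rl1 with 4 UMIs in Il10-positive cells were lower. Of 16 measured cytokine receptor genes, none was higher and 7 were lower. Il1r2, a decoy receptor for interleukin-1, was in 5 of 68 cells against 658 of 1766, at 0.141 (0.0642 to 0.268).

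The lowest genes of all were mostly absent from Il10-positive cells. Ifitm1, an interferon-induced membrane protein, had 3 UMIs in 1 cell against 5384 UMIs in 360 Il10-zero cells, a ratio of 0.0178 (0.00366 to 0.0519), and Ifitm2 and Ifitm3 of the same family stood at 0.0951 and 0.116. Of the 8 measured interferon response genes, Mx1 alone was higher and none was lower, against 5.4% and 8.48% of all 8442 genes. These are too few genes to set the list apart from those shares. Mx1 rested on 5 UMIs at 2.34 (0.738 to 5.74), an interval that holds equality, and Isg15 stood at 1.34. Ccl1, a chemokine for Ccr8, had 0 UMIs against 2237, so it was at least 23.4-fold lower, and Xcl1, a chemokine for dendritic cells, had 1 UMI against 895. Actn2, an actin-binding protein, had 1 UMI against 1498 UMIs in 542 cells. Penk, the enkephalin precursor, had 11 UMIs in 5 cells at 0.0925 (0.0461 to 0.166), and Klrc1, the receptor NKG2A, and Nrgn, neurogranin, had 0 UMIs.

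Of 12 cycling cell genes, none was higher and 8 were lower. Mki67, a nuclear protein of dividing cells, was in 9 of 68 Il10-positive cells against 430 of 1766, at 0.300 (0.188 to 0.456), and Ube2c, a ubiquitin-conjugating enzyme of mitosis, had 10 UMIs at 0.122 (0.0585 to 0.225). Mcm2 and Pcna, which act in DNA replication, stood at 1.04 and 1.05. With all cells that had a Mki67 or Top2a UMI left out, 50 Il10-positive and 1156 Il10-zero cells stayed, and the log2 ratio of Eomes was 3.04, against 3.11 over all cells. Among 14 genes linked to tissue dissociation stress, 1 was higher (Zfp36, at 2.05) and 2 were lower (Jun, at 0.385, and Hspa1b), and among 12 early genes of TCR signalling 1 was higher (Myc, 40.0% of its UMIs in 1 cell). Of 18 measured homing genes, 3 were higher, among them the gut-homing receptor Ccr9 at 2.13 (1.42 to 3.08) and Cxcr4 at 2.10 (1.57 to 2.77), and Ccr7 was lower. Over all 8442 genes, 5.4% were higher and 8.48% lower. The stress, TCR signalling and homing lists are too short to be set apart from those shares.

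Cells with 1 Il10 UMI, just inside the threshold, are listed beside cells with 0, 2, and 3 or more. Eomes stood at 0.191 per 10000 UMIs in the 1766 cells with 0 Il10 UMIs, at 1.80 (1.2 to 2.58) in the 36 cells with 1, at 1.27 (0.678 to 2.18) in the 19 with 2 and at 1.85 (0.986 to 3.17) in the 13 with 3 or more. Maf followed at 1.69, 5.02, 5.29 and 5.84, and Tigit at 4.80, 14.3, 12.9 and 13.0. Both were thus about level from 1 UMI on, with overlapping intervals. Ctla4 stood at 6.27, 9.86, 9.12 and 22.9, and Il21 at 0.168, 0.248, 0.490 and 2.28, so that the cells with 3 or more Il10 UMIs were the highest for both. Il21 rested there on 16 UMIs in 4 of the 13 cells, with 9 UMIs in 1 cell. Cd27 was highest with 1 Il10 UMI, at 0.576, 3.97, 2.94 and 1.28.

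The CD4 class was clustered without Il10, Foxp3, TCR and immunoglobulin genes, so that cluster membership is not set by the rule. Of the 68 Il10-positive cells, 53 (77.9%, 66.2% to 87.1%) were in cluster 6, a cluster of 197 cells that held 8.10% of Il10-zero cells. Its leading genes were Eomes, Gzmk, Ccl5, Esm1 and Cd27, and it held as many T follicular helper or stem-like as cytotoxic markers, so it is left unnamed. The cycling-like cluster 2 held 5 Il10-positive cells, cluster 5 held 4, cluster 1 held 3, and clusters 3, 4 (T helper 17-like) and 7 held 1 each. The T helper 2-like cluster 8, with 137 cells, and cluster 9, with 85 cells, held none, which by a limit of 3 cells allows shares of up to 2.19% and 3.53% of their cells. At resolutions of 0.5 and 1.2 a single cluster held 55 and 51 of the Il10-positive cells.

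**Figure D3:**
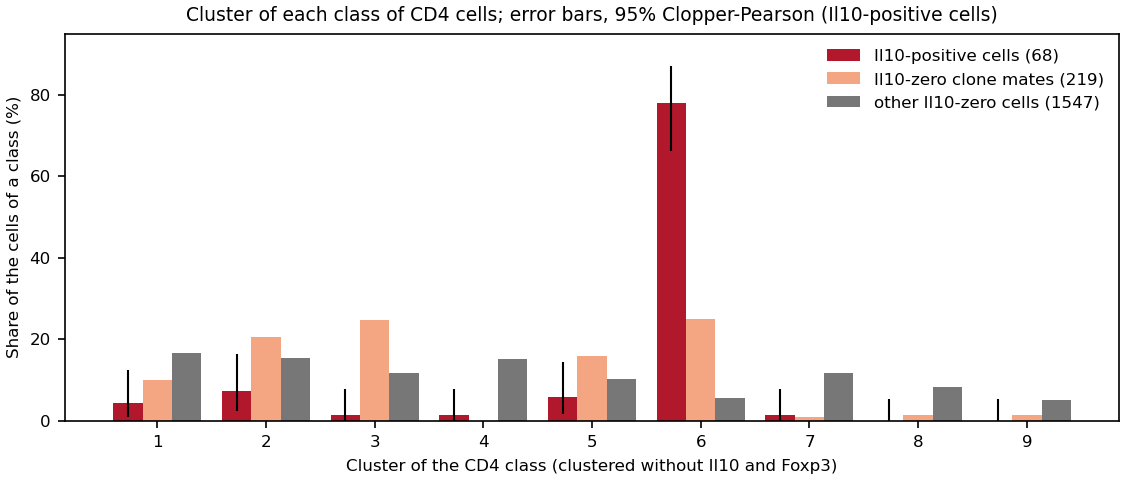
Share of the 68 Il10-positive cells, of their 219 Il10-zero clone mates and of the other 1547 Il10-zero cells in each of 9 clusters of the CD4 class, in percent of the class. Bars of Il10-positive cells carry 95% Clopper-Pearson intervals; cluster 6 holds 77.9%, 25.1% and 5.69% of the 3 classes.

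Within cluster 6, Eomes and Gzmk stood near equality between 53 Il10-positive and 143 Il10-zero cells, while the chemokines Ccl4 and Ccl3 were higher in Il10-positive cells, with 30.7% and 44.3% of their UMIs in 1 cell. Of 2361 genes with 50 or more UMIs over both, 0.635% were higher and 1.02% lower in Il10-positive cells. Eomes stood at 1.02 (0.721 to 1.41), Gzmk at 0.954 (0.792 to 1.14), Lag3 at 1.02 (0.767 to 1.35) and Slamf6 at 0.894 (0.561 to 1.39), intervals that all hold equality. Eomes and Gzmk are leading genes of this cluster, so their near equality inside it follows in part from the grouping of its cells. It cannot show whether Il10 goes with either gene. Ccl4 stood at 4.42 (3.89 to 5.04), Ccl3, a chemokine of the same family, at 2.56 (1.89 to 3.47), Gzmb at 1.71 (1.5 to 1.94), Ctla4 at 1.69 (1.45 to 1.97) and Maf at 1.62 (1.31 to 2.01). Among the lower genes in Il10-positive cells were Penk at 0.228 (0.107 to 0.435), Jun at 0.410 (0.230 to 0.686) and Cd69, an early activation and retention marker, at 0.481 (0.325 to 0.692).

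Outside cluster 6, 10.7% of 8326 genes were higher and 7.61% lower in the 15 Il10-positive cells against 1623 Il10-zero cells. Gzmk was in 9 of the 15 cells against 166 of 1623, at 5.86 (3.97 to 8.39), and Eomes had 4 UMIs at 5.26 (1.39 to 14.1). Serpina3f, a serine protease inhibitor induced by interferon, stood at 7.63 (4.27 to 12.7) and Maf at 2.05 (1.42 to 2.86). Ccl4 stood at 1.28 (0.844 to 1.88), an interval that holds equality, and 636 of its 663 UMIs in Il10-positive cells were in cluster 6.

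Of the 44 Il10-positive cells with a clonotype, 39 belonged to a clonotype of 2 or more kept cells (88.6%, 75.4% to 96.2%), against 75.8% of Il10-zero cells with a clonotype (72.7% to 78.7%), and these intervals overlap. The share with an Il10 UMI is given for the clones with most Il10-positive cells, and for clone 9. Clone 1 had 8 Il10-positive and 30 Il10-zero cells (21.1% positive, 9.55% to 37.3%), clone 2 had 6 and 23, and clone 3 had 4 and 36. Clone 4 had 4 and 7 (36.4%, 10.9% to 69.2%) and clone 5 had 4 and 4 (15.7% to 84.3%). Clone 9 had 1 Il10-positive and 38 Il10-zero cells (2.56%, 0.0649% to 13.5%). Its interval overlaps those of clones 1 to 4 but not that of clone 5. Of 16 clonotypes with 10 or more cells, 8 held an Il10-positive cell, and the 8 others had 149 cells and none, the largest with 32 cells.

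**Figure D4:**
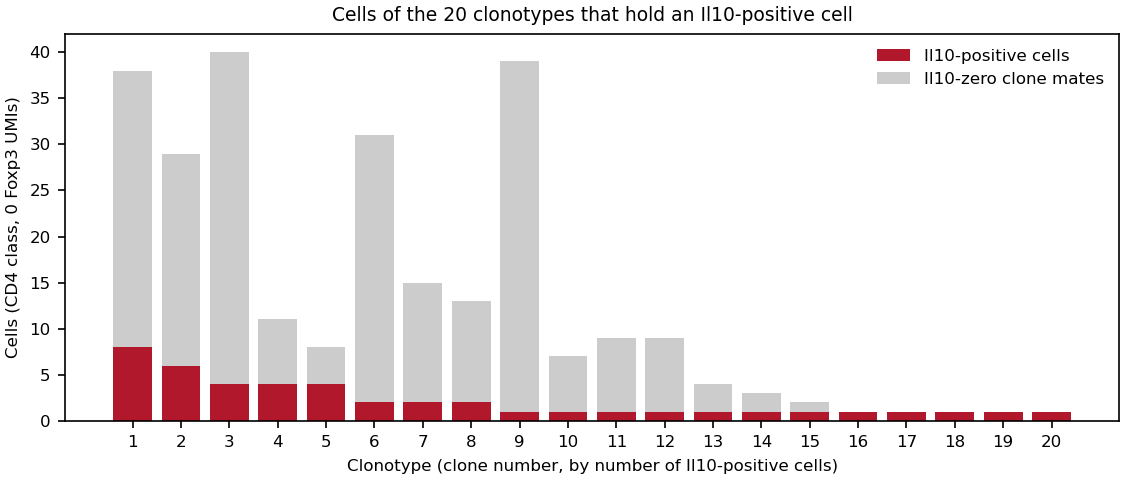
Numbers of Il10-positive cells and of Il10-zero clone mates in the 20 clonotypes with an Il10-positive cell, ordered by their number of Il10-positive cells (CD4 class, 0 Foxp3 UMIs). Clone 1 has 8 of 38 cells positive, clone 9 has 1 of 39, and clones 16 to 20 consist of 1 cell each.

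Some of the 20 clonotypes share a chain: clones 1 and 19, 4 and 14, and 5 and 18 have the same TRB sequence and differ by a second TRA chain, which leaves 17 TRB sequences. TRAJ31, the J segment of the chains printed for clones 4, 5, 6 and 8, was found with 5 of the 17 (29.4%, 10.3% to 56.0%), against 25 of 250 TRB sequences of Il10-zero cells without an Il10-positive clone mate (10%, 6.58% to 14.4%). The intervals overlap, and the segment was singled out after the counts of all segments were seen.

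The 219 Il10-zero clone mates of Il10-positive cells also differed from the other 1547 Il10-zero cells, and both groups had 0 Il10 UMIs. All clone mates had a clonotype, whereas 940 of the 1547 other cells had none, so that some of these may belong to the same clones. Of 8395 genes, 0.858% were higher and 2.88% lower in clone mates. Eomes was in 41 of 219 clone mates against 69 of 1547 other cells, at 0.642 against 0.131 per 10000 UMIs, a ratio of 4.90 (3.65 to 6.54). Gzmk stood at 3.38 (2.94 to 3.89), Esm1, a secreted proteoglycan, at 3.07 (2.42 to 3.88), Tox at 2.70 (2.11 to 3.42), Ikzf2 at 2.51 (1.97 to 3.17) and Ccl5 at 2.31 (2.24 to 2.37). Ccl4 at 0.941 (0.823 to 1.07) had an interval that holds equality, and Ctla4 stood at 0.910 (0.841 to 0.983), Maf at 1.42 (1.25 to 1.62) and Lag3 at 1.47 (1.24 to 1.73). Ifitm1 stood at 0.151 (0.124 to 0.183), Csf2 at 0.370 (0.290 to 0.465) and Il17a had 0 UMIs against 347. With 1 clone mate per clonotype, 15 cells, the log2 ratio of Eomes was 3.58, against 2.29 over all clone mates, that of Gzmk was -0.11, against 1.76, that of Maf was -0.31, against 0.51, and that of Ccl4 was -2.07, against -0.09. Against the 607 other Il10-zero cells that had a clonotype, 68 of 7139 genes were higher and 125 lower in clone mates, with log2 ratios of 2.67 for Eomes, 2.19 for Gzmk and 0.80 for Maf.

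Clone mates were found in cluster 3 as well as in cluster 6. Cluster 3, led by Cd14, H2-Aa and Il1b, had 9 of the 11 macrophage markers at 2-fold or more over the rest of the CD4 class, and held 24.7% of clone mates, 11.8% of the other Il10-zero cells and 1 Il10-positive cell. Over all their cells, the macrophage markers stood at 1.22 per 10000 UMIs (1.03 to 1.43) in clone mates, with Csf1r and Adgre1 at 0, against 1.31 (1.24 to 1.39) in the other cells, where all 11 were found. Without cluster 3, in 165 clone mates and 1365 other cells, the log2 ratio of Eomes was 2.48 and that of Gzmk 1.98, that of Ccl4 was 0.19, that of Csf2 was -3.33, against -1.44 with it, and that of Ifitm1 was -3.61, against -2.73.

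Il10-positive cells were also set against their own clone mates, over UMIs summed across clonotypes and then within each clonotype. Set against their own clone mates, 39 Il10-positive cells in 15 clonotypes had 2.39% of 3848 genes higher and 5.61% lower; they share the clone mates with the comparison above. Maf stood at 2.53 (2.0 to 3.16), or 2.29 when summed within clonotypes, and was higher in Il10-positive cells in 8 of the 8 clonotypes with 2 or more of them. Ctla4 stood at 2.46 (2.13 to 2.84), or 2.24 within clonotypes, and Ccl5 at 3.50 (3.35 to 3.65), or 2.74, each higher in 7 of 8 clonotypes, and Tigit at 2.21 (1.92 to 2.53), or 1.89, higher in 6. Eomes stood at 2.26 (1.40 to 3.53), or 1.51 within clonotypes, and was higher in 6 of 8. Ccl4 stood at 2.76 (2.18 to 3.47), or 2.78 within clonotypes, but was higher in 2 of the 8 clonotypes. Serpina3f stood at 5.39 (3.19 to 9.04), or 5.58 within clonotypes, and at 1.47 (0.996 to 2.10) in clone mates over other cells. Il1r2 at 0.215 (0.0777 to 0.476) and Il18rap, with 1 UMI against 139, were lower over the summed cells and higher in 0 of the 8 clonotypes.

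**Figure D5:**
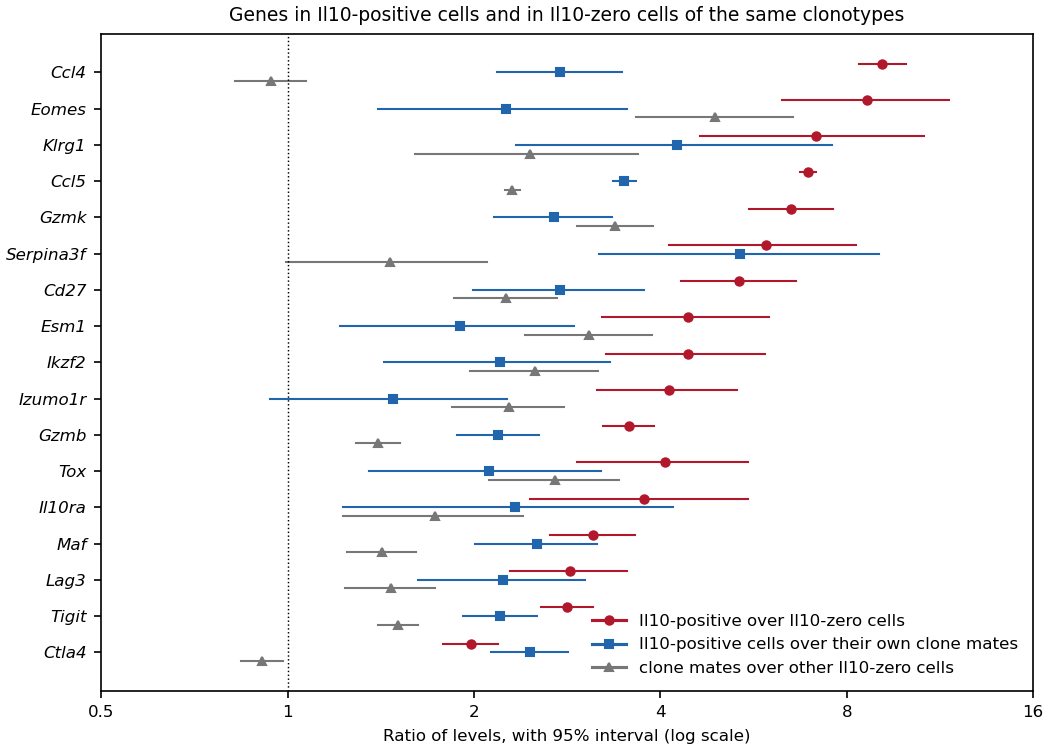
Ratios of levels for 17 genes, on a log axis with exact 95% intervals, in 3 comparisons that share cells: Il10-positive over Il10-zero cells, Il10-positive cells over their own clone mates, and Il10-zero clone mates over other Il10-zero cells. Eomes stands at 8.64, 2.26 and 4.90, Maf at 3.12, 2.53 and 1.42, and Ccl4 at 9.13, 2.76 and 0.941.

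Among cells with Cd8 and no Cd4 UMIs, the 80 Il10-positive cells were set against 2311 Il10-zero cells for the 12 highest and 12 lowest genes. Gzmk stood at 1.65 (1.48 to 1.84), Ccl5 at 1.55 (1.52 to 1.58) and Eomes at 1.82 (1.42 to 2.31), against 6.51, 6.93 and 8.64 in the CD4 class. The Il10-zero Cd8 cells were themselves high for these genes, with Gzmk at 4.13 per 10000 UMIs against 0.898 in Il10-zero CD4 cells. Xcl1 had 1 UMI against 2044 in Cd8 cells, and Csf2, with 18 UMIs in 2 cells, stood at 2.41 (1.40 to 3.91), against 0 UMIs in Il10-positive CD4 cells.

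The genes whose level over the 9 clusters was most like that of Il10, by Spearman correlation among 8055 genes, were Ppp4r1 at 0.983, Cbfa2t2 at 0.967 and Phf11b, Tpst2 and Xrn1 at 0.95. These are descriptions over 9 clusters of 1 library, which differ in depth. Cluster levels include Foxp3-positive cells: cluster 9 held no Il10-positive cell as defined here, yet stood at 0.0409 Il10 UMIs per 10000 UMIs. Among 8055 genes ranked over 9 clusters, high correlations can come up by chance, which was not tested.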

How the data were processed

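The RNA matrix holds UMI counts per gene and barcode as the authors deposited them, whole and not normalized, and the contig table holds the deposited read and UMI counts and annotation of each TCR contig. Per the submitters' processing notes, Cell Ranger (version: not given in the sources used here) and mm10 were used. Kept were barcodes with 500 or more genes and at most 10% mitochondrial UMIs, 5333 of 5348 (2549 to 39138 UMIs, median 4800); 5133 had a contig. No doublet caller was used; 232 kept cells, 2 of them Il10-positive, had 2 or more productive TRB chains.

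All intervals are at 95%: Clopper-Pearson for shares, exact Poisson for levels and exact conditional binomial for ratios. A gene without UMIs in a class got a floor of 3 UMIs there, and a share of 0 cells is given with a limit of 3 cells of the total. The step that makes ratios was checked on simulated UMIs. Named genes are the 12 highest and 12 lowest by the interval bound nearest 1 (50 or more UMIs over both classes, UMIs in 10 or more cells of the higher class), up to 4 of each list, and the markers given for the cells; Itga2, Prf1, Prdm1 and other list members, and the genes named within cluster 6, were added after their values were seen. TCR, immunoglobulin, mitochondrial, ribosomal and predicted genes were left out. Clusters used 2000 variable genes, 30 components, 15 neighbours and Leiden resolution 0.8, and were named from marker lists. Members and lists were chosen with earlier results of these data known. Tools were Python 3.11.15, numpy 2.4.6, scipy 1.17.1, pandas 2.3.3, scanpy 1.11.5, leidenalg 0.10.2, scikit-learn 1.9.0 and matplotlib 3.10.9. Values of a few genes were left out of the text. The alternatives are in the closing section.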

Additional observations from a re-analysis of the deposited data

How the results depend on the processing

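No paired analysis was possible because the study has 1 sample of each kind. Against 456 genes higher and 716 lower in Il10-positive cells, 201 were higher and 1154 lower without the highest cell of each gene, 140 and 340 with a minimum of 200 UMIs, 806 were higher with a minimum of 10, and 289 were higher with 1 cell per clonotype (20 against 315 cells). Leaving out the highest cell takes 1 of 68 Il10-positive but 1 of 1766 Il10-zero cells, with the summed totals kept whole. By construction this lowers most ratios. Alternatives chosen after the data were seen gave 15 and 24 within cluster 6, 890 higher outside it, and 92 and 216 for Il10-positive cells over their own clone mates. The share of Il10-positive cells was 2.73% with classes set on thinned cells and 2.04% with 2 or more Il10 UMIs. With 1 clone mate per clonotype, 785 genes were higher and 539 lower, against 72 and 242, and log2 ratios were -0.11 for Gzmk, -0.31 for Maf and -2.07 for Ccl4; 15 clone mates were left. Over other Il10-zero cells with a clonotype, 125 were lower. Of 1193 log2 ratios of named genes under the alternatives set out at the start, 986 were within the interval of the reported value and 9 values of genes past 2-fold had the other sign, as had 8 values of genes under 2-fold (Nr4a2, Isg15, Hsp90aa1, Ifi27l2a and Cd69). The 9 were Il21 at -0.96 with 1 cell per clonotype and -0.42 with 0 Ikzf2 and Il2ra UMIs, Il4 at -0.84 with thinned classes, -0.90 without its highest cell, -0.52 with 1 cell per clonotype and -0.23 with 0 Ikzf2 and Il2ra UMIs, Il13 at 0.63 with the last, Csf2 at 0.087 with thinned classes, and Birc5 at 0.80 without cells holding Mki67 or Top2a; the cause was not tested. Within cluster 6, Gzmk stood at -0.068, Esm1 at -0.44, Tox at -0.27, Slamf6 at -0.16, Il12rb2 at 0.21, Tnfsf11 at 1.18, Tmem176a at 2.41, Cdk1 and Xcl1 at 0.41 and Ifitm2 at 1.41; outside it Irf8 stood at -0.84; over clone mates Il21 stood at -0.066; and without the 5 clonotypes with most Il10-positive cells Il4 stood at -0.48. Under these last 4 alternatives 13 values of genes under 2-fold also had the other sign, among them Cd2 at -0.76 and Nr4a2 at -0.47 outside cluster 6. Depth limits genes under 50 UMIs, such as Cxcr5.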
